A study of Mus musculus with 8 samples.

Results

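Tpt1, Ak1 and Cdk2ap1 are mouse genes whose RNA and ribosome footprints moved apart between oligodendrocyte progenitor cells (OPCs) and oligodendrocytes. They are 3 of the 10987 canonical coding transcripts with deposited values. They were picked by name with the RNA-seq and footprint values given here already known, so their changes are described without a test. Tpt1 RNA was higher in oligodendrocytes while its footprints were lower. Ak1 showed the opposite pattern, with less RNA and more footprints. Cdk2ap1 had less RNA in oligodendrocytes and nearly the same footprint level.

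Total RNA and ribosome footprints were sequenced from the same lysates of 2 OPC cultures and 2 oligodendrocyte cultures, which gives 8 libraries. The OPCs were derived from epiblast stem cells of the mouse strain 129S/SvEv and grown with bFGF and PDGFA, each at 20 ng/mL. The oligodendrocytes were differentiated from these OPCs with 40 ng/mL thyroid hormone T3, 100 ng/mL noggin, 100 ng/mL IGF-1, 10 ng/mL NT3 and 10 uM cyclic AMP, without bFGF or PDGFA, and collected after 3 days. Part of a differentiated culture remains undifferentiated OPCs, as the study describes. Footprints are the pieces of mRNA that ribosomes shield from micrococcal nuclease.

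FPKM are fragments scaled to length and to the mapped reads of a library. RNA-seq values cover the whole transcript, and footprint values the coding sequence (CDS). The ribosome density of a transcript is its footprint FPKM divided by its RNA FPKM. The summed RNA level of 7 listed oligodendrocyte markers was between 34.3 and 36.7 FPKM in OPCs and between 3271 and 3743 FPKM in oligodendrocytes. The 6 listed OPC markers summed to between 890 and 1023 FPKM in OPCs and to between 1460 and 1499 FPKM in oligodendrocytes. Of these, 4 were higher in both oligodendrocyte cultures and 0 lower. Olig1 made up most of the sum in OPCs, at 693 and 571 FPKM, and was at 735 and 686 FPKM in oligodendrocytes. Gpr17 was at 8.38 and 4.91 FPKM in OPCs and at 221 and 271 FPKM in oligodendrocytes. Cspg4, the OPC marker used in the study, was not listed, so the sum does not measure how many OPCs remained. The 4 listed astrocyte markers summed to between 170 and 223 FPKM in OPCs and between 226 and 302 FPKM in oligodendrocytes, and the 4 listed neuron markers to between 15.5 and 21.6 FPKM and between 44.2 and 47.6 FPKM. The single listed markers of microglia and of pluripotent stem cells were at most at 0.0674 and 0.501 FPKM of RNA. In these bulk cultures, more cells of a type and more RNA per cell cannot be told apart. The part of these markers in the changes of the 3 genes was not tested.

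Tpt1 encodes the translationally controlled tumour protein, an abundant, highly conserved protein with roles in growth and cell survival. Its mRNA is known as a TOP mRNA, meaning that it starts with a C and a run of pyrimidines (a 5′ terminal oligopyrimidine motif), as do the mRNAs of ribosomal proteins and several translation factors. The translation of TOP mRNAs is known to depend on growth signals through mTORC1 and the RNA-binding protein Larp1. Ak1 encodes adenylate kinase 1, a cytosolic enzyme that interconverts ATP, ADP and AMP and is abundant in muscle and brain. Cdk2ap1 encodes a small nuclear protein that binds the cell cycle kinase Cdk2 and is a subunit of the NuRD chromatin remodelling complex.

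Coordinates and sequences are those of GRCm38. The canonical Tpt1 transcript, ENSMUST00000110894, runs on the plus strand of chromosome 14 from 75845093 to 75848415 in 6 exons, with a 5′UTR of 336 nucleotides, a CDS of 519 nucleotides including the stop codon and a 3′UTR of 314 nucleotides. The canonical Ak1 transcript, ENSMUST00000113277, lies on the plus strand of chromosome 2 from 32625437 to 32635054 in 7 exons, with a 5′UTR of 133, a CDS of 585 and a 3′UTR of 1345 nucleotides. The canonical Cdk2ap1 transcript, ENSMUST00000031341, lies on the minus strand of chromosome 5 from 124345417 to 124354671 in 4 exons, with a 5′UTR of 300, a CDS of 345 and a 3′UTR of 670 nucleotides. All of these coding sequences are shorter than the median of 1377 nucleotides over the listed transcripts. No exon of the 3 transcripts overlaps another gene on either strand.

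The annotated starts are shown because Tpt1 is known as a TOP mRNA. Each line gives 10 genomic bases before the annotated first base and 20 bases from it on, 5′ to 3′ on the strand of the gene, and capitals mark the unbroken run of pyrimidines (C or T) that begins at the annotated first base.
Tpt1 canonical start, chr14:75845083-75845112, plus strand: cccttcccgtCCCagcatgccccgggcgca
Tpt1 ENSMUST00000150047, a retained-intron transcript, chr14:75845321-75845350, plus strand: ccgcgtcggcCTTTTCCgcccgctcccccc
Ak1 canonical start, chr2:32625427-32625456, plus strand: ccagcatgccatgcgtgcgcgctgacagcc
Cdk2ap1 canonical start, chr5:124354652-124354681, minus strand: gccccctcccggtccggccccggcccagca
With a TOP start defined as C followed by at least 4 pyrimidines, the canonical Tpt1 transcript did not have one, and 1 of its 8 annotated transcripts did. That transcript starts with 7 pyrimidines. No annotated transcript of Ak1 or Cdk2ap1 has such a start. Among all listed genes, 10.2% had a TOP start in any annotated transcript and 2.26% in the canonical one, against 22 and 5 of 54 ribosomal protein genes. An annotated start need not be the start used in these cells, which was not measured.

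The start codons are shown with 12 bases before and 3 bases after the ATG, which is in capitals.
Tpt1, chr14:75845417-75845434, plus strand: ccagccgtcaccATGatc
Ak1, chr2:32628470-32628487, plus strand: gatctcagcaggATGgaa
Cdk2ap1, chr5:124354366-124354383, minus strand: ccgcccgcggggATGtcg
All 3 have a purine at the third base before the ATG, as do 86.0% of listed transcripts with enough 5′UTR, and Ak1 is the one with a G directly after it, as in 52.5% of listed transcripts. Upstream ATG triplets numbered 3 in the 5′UTR of Tpt1, 1 in Ak1 and 2 in Cdk2ap1, and 50.4% of listed transcripts had at least 1. The Tpt1 count is that of the canonical 5′UTR and includes an ATG in the printed canonical start, upstream of the start of ENSMUST00000150047.

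The study is about the decoding of Phe and Lys codons, so their use was counted in the 3 coding sequences. The 172 codons of Tpt1 hold UUU 4 times and UUC 5 times (Phe), and AAA 8 times and AAG 6 times (Lys). Among the 194 codons of Ak1 these numbers are 2, 3, 3 and 16. Cdk2ap1, with 114 codons, has no Phe codon, as 0.410% of listed coding sequences, and 3 AAA and 2 AAG codons. The AAA share of Lys codons was 0.571 in Tpt1 and 0.6 in Cdk2ap1, above 87.2% and 90.4% of listed transcripts, and 0.158 in Ak1, above 10.5% of them. The Cdk2ap1 share rests on only 3 AAA and 2 AAG codons. The part of codon use in the changes of the 3 genes was not tested.

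Part of this sequence is not unique in the genome, which bears on how reads can be assigned. Every one of the 490 words of 30 bases in the Tpt1 CDS, and every one of the 316 in the Cdk2ap1 CDS, has another exact copy elsewhere in GRCm38. Over the whole transcript the share was 62.3% for Tpt1 and 95.7% for Cdk2ap1. For Ak1 it was 0% of 556 CDS words and 0.590% of the transcript. The processed pseudogene Tpt1-ps3, on the minus strand of chromosome 6 from 99877816 to 99878334, holds all 490 CDS words of Tpt1. The single-exon gene Gm12184, on the minus strand of chromosome 11 from 48825346 to 48826655, holds all 316 CDS words of Cdk2ap1 and 93.4% of the words of its transcript. Neither copy is among the listed transcripts. How reads that match several places were shared is not given in the sources used here, so the levels of Tpt1 and Cdk2ap1 are uncertain in a way that those of Ak1 are not. Of 10985 listed transcripts measured this way, 2.39% had every CDS word in a transcript of another gene and 68.2% had none.

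**Figure D1:**
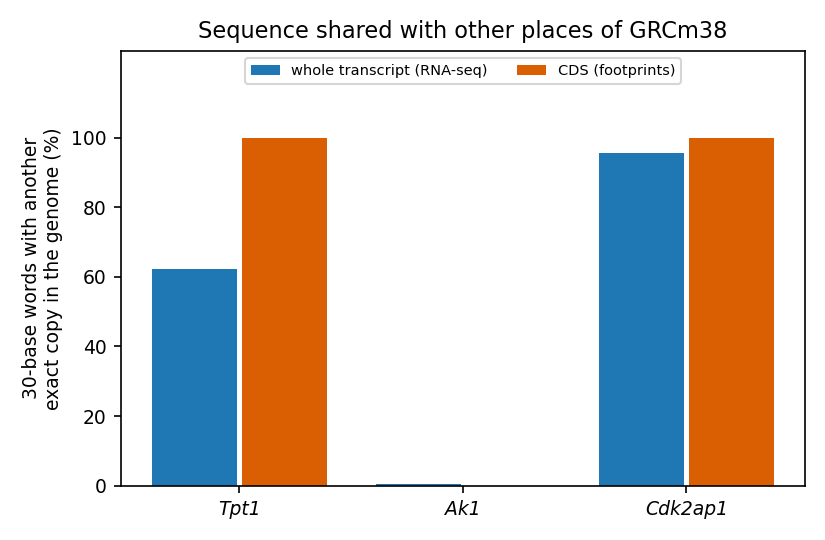
Share of all 30-base words of the whole transcript (blue bars, the region counted in RNA-seq) and of the CDS (orange bars, the region counted for footprints) that have another exact copy in GRCm38, in percent, for each gene. The CDS bars reach 100% for Tpt1 and Cdk2ap1 and 0% for Ak1.

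Depth was estimated, since FPKM hold no counts. Aligned bases came to between 77.9 and 241 Mb in the RNA-seq libraries and between 93.0 and 249 Mb in the footprint libraries, with a possible factor of 2. In reads of 30 bases, Ak1 had the fewest of the 3 genes in RNA-seq, from 92 in oligodendrocyte replicate 2 to 543 in OPC replicate 1, which gives a relative counting error (1 SD) of between 10.4% and 4.29%. Its footprints came to between 189 and 350 reads. Cdk2ap1 had between 236 and 1450 RNA reads and between 182 and 471 footprint reads, and Tpt1 at least 1498 in every library. These errors cover counting only. Replicate libraries had Spearman correlations of between 0.925 and 0.979 across transcripts, lowest for the oligodendrocyte footprints.

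Tpt1 was among the most abundant transcripts in every library, above 98.8% of listed transcripts at the least. OPC replicates 1 and 2 had RNA levels of 493 and 426 FPKM, and oligodendrocyte replicates 1 and 2 had 705 and 661 FPKM. Footprint levels were 1599 and 1960 FPKM for the OPC replicates, against 856 and 931 FPKM for the oligodendrocyte replicates. Both oligodendrocyte cultures were above both OPC cultures in RNA and below both in footprints. How many of all transcripts separate in this way was not counted, and with 2 cultures a group such a separation carries little weight. The mean RNA level was 459 ± 47.5 FPKM in OPCs and 683 ± 31.2 FPKM in oligodendrocytes, and the mean footprint level 1780 ± 256 and 894 ± 52.9 FPKM (SD, n = 2 cultures each, as for all means below).

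On the log2(FPKM + 0.1) scale, which is used for every change below, Tpt1 RNA was higher by 0.58 in oligodendrocytes, and by 0.52 and 0.63 within the pairs of cultures with numbers 1 and 2. Its footprint change was -0.99, with -0.90 and -1.07 within the pairs. The median change of all tested transcripts was -0.23 in RNA and -0.16 in footprints, and relative to these medians Tpt1 changed by 0.81 and -0.83. The ribosome density of Tpt1 was 3.24 and 4.60 in the OPC cultures and 1.21 and 1.41 in the oligodendrocyte cultures. In OPCs this placed Tpt1 above 83.6% and 92.2% of transcripts, and in oligodendrocytes above 22.9% and 35.1%. The log2 change in ribosome density was -1.56, where the median of all was 0.10, and 671 of 8056 tested transcripts had a lower value.

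Ak1 was less abundant, above between 72.6% and 87.8% of listed transcripts. OPC replicates 1 and 2 had 32.7 and 35.7 FPKM of its RNA, and oligodendrocyte replicates 1 and 2 had 18.6 and 17.1 FPKM. For footprints, the OPC replicates had 56.8 and 63.1 FPKM and the oligodendrocyte replicates 84.1 and 104 FPKM. The directions were the reverse of those of Tpt1. Mean RNA was 34.2 ± 2.14 FPKM in OPCs and 17.9 ± 1.10 FPKM in oligodendrocytes, and mean footprints were 59.9 ± 4.45 and 94.1 ± 14.3 FPKM.

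The log2 change of Ak1 RNA was -0.93, with -0.81 and -1.06 within the pairs, and that of its footprints 0.64, with 0.57 and 0.72 within the pairs. Relative to the median transcript these were -0.70 and 0.80. Its ribosome density was 1.74 and 1.77 in OPCs, next to the medians of 1.72 and 1.77 over all transcripts, and 4.51 and 6.10 in oligodendrocytes, above 90.7% and 93.8% of transcripts. The log2 change in ribosome density was 1.58, and 260 of 8056 transcripts had a higher value. As Ak1 shares no CDS word with another place in the genome, its footprints can be placed without such copies.

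Cdk2ap1 RNA stood at 137 and 128 FPKM for OPC replicates 1 and 2, and at 73.1 and 69.1 FPKM for oligodendrocyte replicates 1 and 2. The footprint values were 164.5 and 162.6 FPKM for the OPC replicates, against 163.4 and 170.6 FPKM for the oligodendrocyte replicates. RNA was lower in the oligodendrocyte cultures, while the footprint values of the cell types overlapped. Cdk2ap1 lay above between 91.6% and 96.8% of listed transcripts. Mean RNA was 133 ± 6.09 FPKM in OPCs and 71.1 ± 2.84 FPKM in oligodendrocytes, and mean footprints were 164 ± 1.34 and 167 ± 5.11 FPKM.

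The log2 change of Cdk2ap1 RNA was -0.90, with -0.90 and -0.89 within the pairs. That of its footprints was 0.03, with -0.01 and 0.07 within the pairs, and without oligodendrocyte replicate 2 it was -0.0018, so this change has no stable sign. The ribosome density was 1.20 and 1.27 in the OPC cultures, above 31.2% and 31.8% of transcripts, and 2.23 and 2.47 in the oligodendrocyte cultures, above 55.9% and 62.9%. The log2 change in ribosome density was 0.93, and 626 of 8056 transcripts had a higher value.

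**Figure D2:**
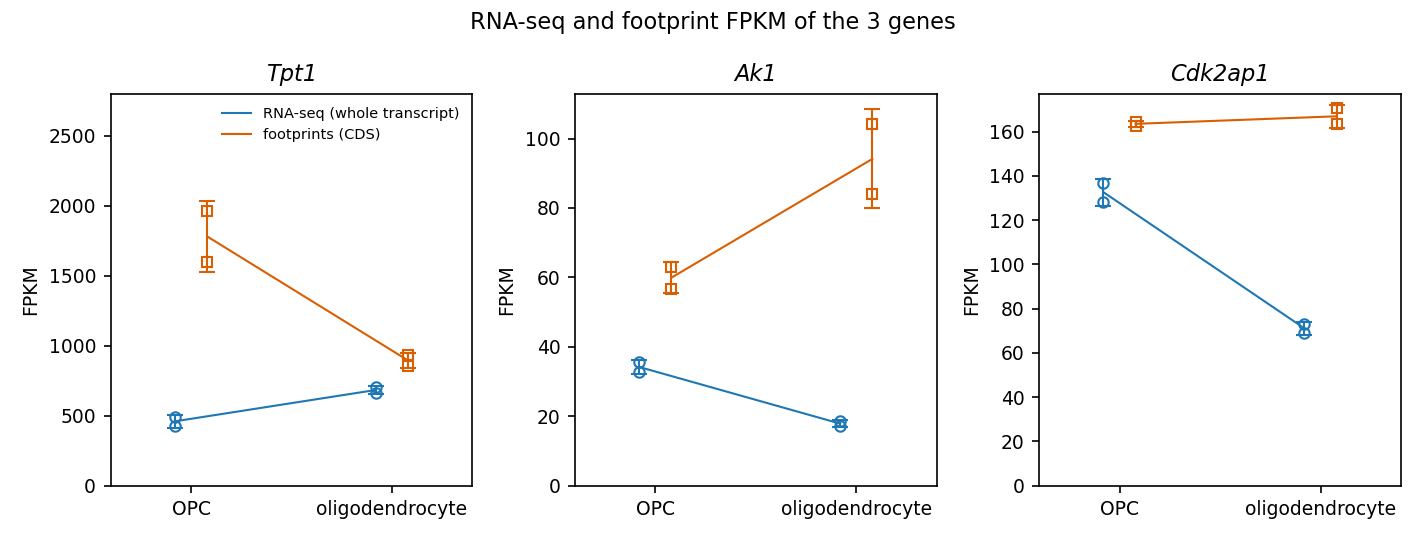
FPKM (linear axes from 0) of each gene in OPCs and oligodendrocytes, with RNA-seq in blue circles and footprints in orange squares; open symbols are the 2 cultures of a group, error bars are the mean ± SD and lines join the means. The lines cross directions for Tpt1 and Ak1, and the orange line of Cdk2ap1 is nearly level, at 164 and 167 FPKM.

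**Figure D3:**
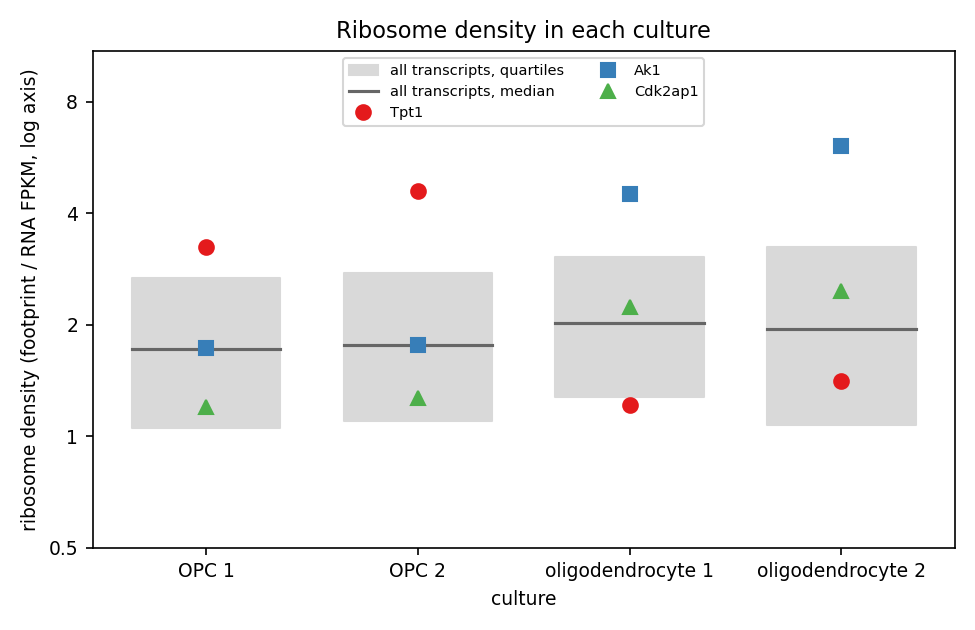
Ribosome density (footprint FPKM over RNA FPKM, log axis) of the 3 genes in each culture, with the quartiles (grey boxes) and median (grey lines) of all transcripts above 0 in both measurements. Tpt1 moves from above the boxes in both OPC cultures to below the median in both oligodendrocyte cultures, while Ak1 moves from the median to above the boxes.

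Across all transcripts, RNA and footprint changes mostly had the same sign. Of 8056 transcripts tested in both, 831 (10.3%) had lower RNA and higher footprints by any amount, as Ak1 and Cdk2ap1, and 482 (5.98%) had higher RNA and lower footprints, as Tpt1. The counts at or beyond each gene are a part of these, so they are smaller by construction. The 3 genes were also picked with this divergence known. By the change in ribosome density alone, 8.33% of tested transcripts lay below Tpt1, and 3.23% and 7.77% lay above Ak1 and Cdk2ap1. Another 48 transcripts (0.596%) lay at or beyond Tpt1 in both measurements. The same holds for 24 others (0.298%) in the case of Ak1 and for 61 others (0.757%), Ak1 among them, in that of Cdk2ap1. Among the 4463 transcripts whose mean reached 10 FPKM in RNA-seq and in footprints, these numbers were 6 for Tpt1 (Hcfc1r1, Mien1, Msrb1, Nenf, Tmbim1 and Ypel3), 0 for Ak1 and 5 for Cdk2ap1 (Ahsa2, Ak1, Cnpy3, Lrrc49 and Pde6d). These names were taken after their values had been seen.

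By limma with Benjamini-Hochberg adjustment, 33.2% of 8346 transcripts differed in RNA-seq, 23.6% of 8342 in footprints and 0.0124% of 8056 in ribosome density at an adjusted p under 0.05. Past this threshold in both RNA-seq and footprints were 1505 transcripts. No test result is given for Tpt1, Ak1 or Cdk2ap1, since they were picked with these changes already known. With 2 cultures a group, an exact permutation test of a single gene cannot give a p below 0.333. Of the transcripts with every CDS word in another gene's transcript, 163 were tested, and their median log2 change in ribosome density was -0.27, against 0.14 for the 5544 with no shared word. Among the 163, 9.20% were at or below the change of Tpt1, and among the 5544 it was 9.58%. The 163 include ribosomal protein transcripts such as Rpl10 and Rps6. The part of shared sequence in the change of Tpt1 was not tested.

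**Figure D4:**
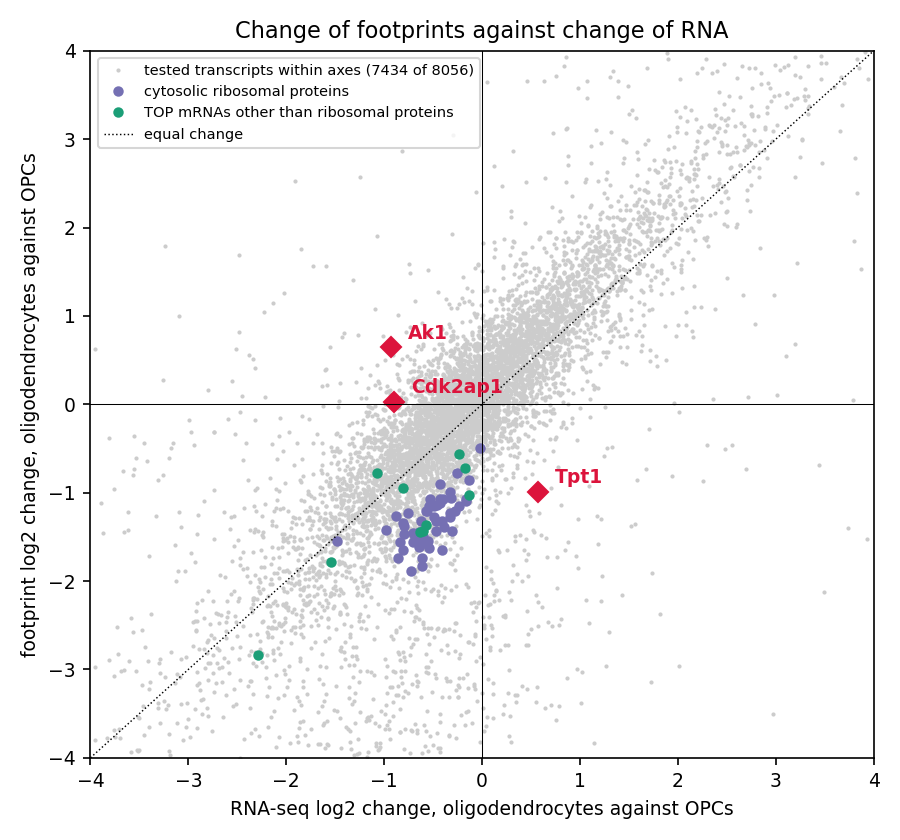
Footprint log2 change against RNA-seq log2 change, oligodendrocytes against OPCs, for the transcripts tested in both (grey points, 7434 of 8056 fall within the axes), the ribosomal protein and other TOP mRNAs of the lists, and the 3 genes (red diamonds); the dotted line marks equal change. Tpt1 lies at 0.58 and -0.99, right of and below zero, and no gene of the TOP lists is right of zero with the deposited FPKM (with median-ratio scaling, 2 of 10 and 4 of 54 are).

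The other TOP mRNAs were described beside Tpt1. Of 20 non-ribosomal TOP mRNAs on the list, 10 were listed and tested, among them translation elongation factors, the poly(A)-binding protein Pabpc1, the nucleolar protein Npm1 and the intermediate filament protein Vim. In RNA-seq 5 of 10 were past the threshold, all lower in oligodendrocytes, where 20.2% of all tested transcripts were lower. The count was 3 with median-ratio scaling, without the variance trend or without the minimum on FPKM. In footprints 9 of 10 were lower, or 5 without the trend, against 10.8% of all tested. The footprints of Tpt1 thus moved in the direction of this list, and its RNA did not: the change in RNA was negative in 10 of 10 listed genes, and in 8 of 10 when FPKM were scaled by median ratio. The median log2 change of the list was -0.62 in RNA, -1.19 in footprints and -0.55 in ribosome density, where Tpt1 had 0.58, -0.99 and -1.56.

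Eef1b2, a subunit of the elongation factor that Tpt1 is known to bind, fell by 0.63 on the log2 scale in RNA (adjusted p = 0.0295, limma) and fell by 1.45 in footprints (adjusted p = 0.00812, limma). Vim fell by 2.29 in RNA (adjusted p = 0.000616, limma) and fell by 2.84 in footprints (adjusted p = 0.0137, limma). In ribosome density 0 of 10 were past the threshold by limma. At an unadjusted p under 0.05 were 5 of 10, against 387 of all 8056 tested transcripts. Of the 3 genes on this list with under 10% of CDS words in another gene, the log2 changes in ribosome density were -0.83 (Rack1), -0.55 (Vim) and -0.54 (Eif3f). Without OPC replicate 1, OPC replicate 2, oligodendrocyte replicate 1 and oligodendrocyte replicate 2 in turn, the RNA count was 2, 1, 3 and 2, and the footprint count 0, 0, 8 and 3. Without either OPC culture 0 transcripts of the whole table passed in footprints by limma, with 1936 and 1927 at an unadjusted p under 0.05.

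The ribosomal protein list was drawn from the transcripts with deposited values and holds 54. Ribosomal proteins without values there are not in it. In footprints 53 of 54 were lower in oligodendrocytes, and in RNA-seq 17 of 54 were. Without the variance trend these counts were 34 and 2, and the RNA count was 3 without the minimum on FPKM and 4 with median-ratio scaling. The shares over all tested transcripts were 10.8% and 20.2%. The list had a median log2 change of -0.55 in RNA, -1.33 in footprints and -0.79 in ribosome density. The RNA change was negative for 54 of 54, and for 50 of 54 with median-ratio scaling, whereas that of Tpt1 was positive with both. Changes in ribosome density ran from -1.24 in Rps27 to -0.06 in Rpl21. Tpt1 was at -1.56, but it was picked with this divergence known. Its place outside that range is therefore not a result. None of the 54 was past the threshold in ribosome density by limma. At an unadjusted p under 0.05 were 44 of 54, against 387 of all 8056 tested transcripts. Ribosomal protein genes, like Tpt1, are known to have many pseudogenes. The RNA count was 1, 0, 1 and 1 and the footprint count 0, 0, 49 and 17 without OPC replicate 1, OPC replicate 2, oligodendrocyte replicate 1 and oligodendrocyte replicate 2, respectively. With the cultures paired in a replicate block, the RNA count was 39.

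Genes that act on TOP mRNAs or in mTORC1 signalling, upstream of Tpt1 translation in the textbook pathway, had 11 of 18 members tested. In RNA-seq 4 of 11 were lower and 0 higher, where 20.2% and 13.0% of all tested transcripts were. In footprints 3 of 11 were lower and 0 higher, where 10.8% and 12.8% were. Larp1, which binds TOP starts, fell by 0.87 in RNA (adjusted p = 0.0331, limma) and fell by 1.36 in footprints (adjusted p = 0.0398, limma). The cap-binding protein Eif4e fell by 0.71 in RNA (adjusted p = 0.0456, limma) and fell by 0.85 in footprints (adjusted p = 0.0237, limma). The kinase Mtor had changes of 0.15 in RNA and 0.87 in footprints (adjusted p = 0.664 and 0.132, limma), and Rheb, the mTORC1 activator known as a partner of Tpt1, -0.25 and -0.05 (adjusted p = 0.422 and 0.780, limma). Leaving out OPC replicates 1 and 2 and oligodendrocyte replicates 1 and 2 in turn gave RNA counts of 0, 0, 1 and 0, and footprint counts of 0, 0, 3 and 0. With median-ratio scaling both counts were 1, and without the variance trend or the minimum on FPKM both were 0 by limma. In the reported fits 4 of 11 were at an unadjusted p under 0.05 in RNA and 5 of 11 in footprints. Of all tested transcripts, 3781 of 8346 and 3173 of 8342 were.

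Among 7 tested proteins known to bind Tpt1 or to act with it, 0 were higher in RNA or footprints, where 13.0% and 12.8% of all tested transcripts were. Lower were 3 of 7 in RNA and 3 of 7 in footprints, against 20.2% and 10.8% of all tested transcripts. They include the mitotic kinase Plk1, which phosphorylates Tpt1 and fell by 2.83 in RNA and fell by 2.99 in footprints (adjusted p = 0.00250 and 0.0234, limma), and Trp53, which fell by 0.66 in RNA and fell by 0.97 in footprints (adjusted p = 0.0341 and 0.0192, limma). The anti-apoptotic Mcl1 had changes of -0.34 and -0.21 (adjusted p = 0.136 and 0.386, limma). The RNA count was 0, 0, 2 and 1 and the footprint count 0, 0, 3 and 1 without OPC replicate 1, OPC replicate 2, oligodendrocyte replicate 1 and oligodendrocyte replicate 2, respectively. The RNA count was 1 with median-ratio scaling, and both counts were 1 without the variance trend. Without the minimum on FPKM they were 2 and 1.

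Other adenylate kinases were set beside Ak1. Ak4 fell by 2.02 in RNA and fell by 2.11 in footprints (adjusted p = 0.00300 and 0.0470, limma), and Ak6 fell by 1.15 and fell by 2.03 (adjusted p = 0.00595 and 0.0266, limma). For Ak3, a mitochondrial enzyme, the changes were 0.09 and 0.17 (adjusted p = 0.725 and 0.372, limma). The log2 changes in ribosome density of Ak3, Ak4 and Ak6 were 0.08, -0.09 and -0.88, where Ak1 had 1.58. Ak5 and Ak8 were under 1 FPKM and not tested.

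In the whole list of nucleotide kinases and phosphotransfer enzymes, without Ak1, 0 were higher in RNA or footprints, where 13.0% and 12.8% of all tested transcripts were. Lower were 8 of 14 tested in RNA and 5 of 15 in footprints, against 20.2% and 10.8% of all tested transcripts. Without the variance trend these counts were 6 and 2, and without the minimum on FPKM 5 and 3. Dtymk, which makes dTDP for DNA synthesis, fell by 1.34 and fell by 1.53 (adjusted p = 0.00506 and 0.00555, limma), and the nucleoside diphosphate kinase Nme2 fell by 0.83 and fell by 1.32 (adjusted p = 0.0150 and 0.00968, limma). In ribosome density 0 of 14 passed by limma, with 0 at an unadjusted p under 0.05, where 387 of all 8056 were. Leaving out OPC replicates 1 and 2 and oligodendrocyte replicates 1 and 2 in turn gave RNA counts of 1, 0, 7 and 6, and footprint counts of 0, 0, 9 and 3. Of the AMPK subunits, the kinase that senses the AMP made by adenylate kinases, 1 of 5 was lower in RNA and in footprints, where 20.2% and 10.8% of all tested transcripts were, so the RNA count is at the background share. It was Prkab1, which fell by 1.02 in RNA and fell by 1.19 in footprints (adjusted p = 0.0421 and 0.04997, limma), and with the replicate block its footprint adjusted p was 0.0783. The AMPK counts were 0, 0, 2 and 0 in RNA and 0, 0, 4 and 0 in footprints in the same order of left-out cultures (OPC replicates 1 and 2, then oligodendrocyte replicates 1 and 2). With median-ratio scaling the RNA count was 0, and without the trend or the minimum both were 0 by limma. In the reported fits 2 of 5 were at an unadjusted p under 0.05 in RNA and 1 of 5 in footprints. Over all tested transcripts, 3781 of 8346 and 3173 of 8342 were, so these counts do not stand above the background.

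Of the NuRD complex, to which Cdk2ap1 belongs, 13 other members were tested. In RNA-seq 3 of 13 were lower and 1 higher, where 20.2% and 13.0% of all tested transcripts were. In footprints 2 of 13 were lower and 1 higher, where 10.8% and 12.8% were, so these counts are near the background shares. Without the minimum on FPKM 1 passed in footprints, without the variance trend 2 did, and with the replicate block 2 did. Cdk2ap2, the paralogue of Cdk2ap1, had changes of -0.03 in RNA and 0.22 in footprints (adjusted p = 0.905 and 0.281, limma), where Cdk2ap1 had -0.90 and 0.03. The histone-binding subunit Rbbp7 fell by 1.52 in RNA and fell by 1.299 in footprints (adjusted p = 0.00184 and 0.00914, limma). Mbd3 fell by 0.98 and fell by 0.86 (adjusted p = 0.00677 and 0.0352, limma). The ATPase Chd3 was at 0.192 and 0.110 FPKM of RNA in OPCs and at 18.1 and 12.9 FPKM in oligodendrocytes, a log2 change of 5.96 (adjusted p = 0.00132, limma). Its footprints were at 0.148 and 0 FPKM in OPCs and at 5.87 and 4.63 FPKM in oligodendrocytes, with an adjusted p of 0.0413 by limma that became 0.0902 with the replicate block. The change in ribosome density passed for 0 of 13 by limma, with 0 at an unadjusted p under 0.05, where 387 of all 8056 were. Leaving out OPC replicates 1 and 2 and oligodendrocyte replicates 1 and 2 in turn gave RNA counts of 2, 2, 3 and 3, and footprint counts of 0, 0, 4 and 0.

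Cdk2ap1 is named for its binding to Cdk2, and it is known to interact with DNA polymerase alpha. Of 8 tested genes of these 2 groups, 6 were lower and 1 higher in RNA, and 4 were lower and 1 higher in footprints. Over all tested transcripts 20.2% were lower and 13.0% higher in RNA, and 10.8% lower and 12.8% higher in footprints. Cyclin Ccne2 fell by 2.20 in RNA and fell by 3.30 in footprints (adjusted p = 0.00215 and 0.00728, limma), cyclin Ccna2 fell by 2.08 and fell by 2.47 (adjusted p = 0.00139 and 0.00644, limma) and the polymerase subunit Pola1 fell by 4.77 and fell by 3.94 (adjusted p = 0.00154 and 0.0224, limma). The Cdk inhibitor Cdkn1c rose by 2.71 and 2.99 (adjusted p = 0.00250 and 0.0108, limma). The RNA count was 2, 1, 7 and 7 and the footprint count 0, 0, 6 and 3 without OPC replicate 1, OPC replicate 2, oligodendrocyte replicate 1 and oligodendrocyte replicate 2, respectively.

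**Figure D5:**
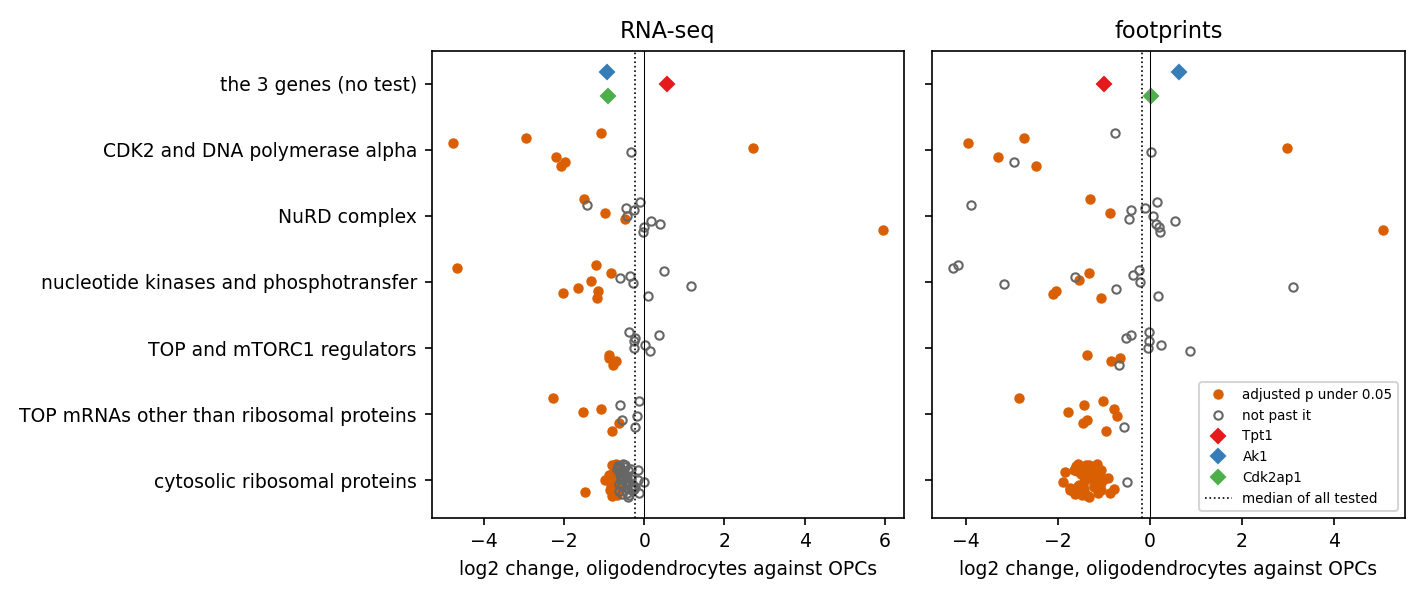
RNA-seq (left) and footprint (right) log2 change, oligodendrocytes against OPCs, of every tested gene of 6 lists (circles, filled orange where the limma adjusted p is under 0.05) and of the 3 genes (diamonds, no test); the dotted line is the median of all tested transcripts. Ribosomal protein footprints lie left of zero with Tpt1, whose RNA lies right of it at 0.58.

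Transcripts with the most similar pattern were ranked by Pearson correlation of log2(FPKM + 0.1) over the 8 libraries, among 8056 transcripts, as a description. The libraries share lysates and the kind of library sets much of each pattern. For Tpt1 the highest were Gm2026 (r = 0.937), Tob1 (0.931), Polr2c (0.926), Zfp11 (0.922) and Ethe1 (0.921). Tob1, an antiproliferative protein, had log2 changes of 0.01 in RNA and -0.64 in footprints. All CDS words of Gm2026 occur in another gene.

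For Ak1 the highest were Cobll1 (r = 0.981), Zfx (0.981), Ermp1 (0.980), Cnot4 (0.978) and Cpd (0.974). Their changes were smaller than those of Ak1, from -0.34 to -0.58 in RNA and from 0.24 to 0.52 in footprints. For Cdk2ap1 they were Dpm1 (r = 0.996), Stard7 (0.980), Eci3 (0.974), Cptp (0.970) and Cnpy3 (0.970). Dpm1 was listed at 0 in RNA-seq of both oligodendrocyte cultures while its footprints were at 74.5 and 71.5 FPKM there, and all of its CDS words occur in another gene. Eci3 was also listed at 0 in oligodendrocyte RNA. Cnpy3, with no CDS word in another gene, changed by -1.19 in RNA and 0.07 in footprints, next to -0.90 and 0.03 for Cdk2ap1.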

How the data were processed

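Ribosome profiling and RNA-seq of 2 OPC and 2 oligodendrocyte cultures were analysed, with groups taken from the labels. The authors deposited FPKM, made by trimming adapters, mapping to GRCm38 with HISAT2 2.1.0 and tabulating with StringTie 1.3.5 and ballgown on canonical coding transcripts of Gencode, with replicates kept apart. Their code gives no strand option for the tabulation.

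FPKM were used as deposited. RNA-seq and footprints were fitted separately in R 4.3.3 (limma 3.58.1), as log2(FPKM + 0.1) with a variance trend, keeping transcripts whose mean over the 4 libraries reached 1 FPKM. The change in ribosome density was fitted over 8 libraries as the interaction between cell type and library kind. That fit had no term for culture, so RNA-seq and footprint libraries of the same lysate were treated as independent. Tests were two-sided, with Benjamini-Hochberg adjustment over all transcripts, and were tested on simulated data. Because p-values rest on 2 cultures a group, those of RNA-seq and of footprints measure the spread between these cultures. Those of ribosome density measure the spread between libraries. The cultures were not stated to come from separate animals. The oligodendrocytes were differentiated from the OPC replicates, so same-numbered cultures were taken as pairs in the replicate block. Their deviations from the group means correlated with r = 0.108 in RNA-seq, 0.0860 in footprints and 0.0604 in ribosome density.

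Coordinates, exons and sequences came from Gencode vM21, in which all 10987 transcripts were found. All 30-base words were searched on both strands of the genome. Depth was estimated from the smallest step of FPKM times length. Members and lists were chosen with earlier results of these data known. From each list, up to 4 genes a direction were named that passed the threshold and moved the same way in both pairs, besides adenylate kinases, Cdk2ap2 and mTORC1 genes. Some genes that meet this rule are not reported here.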

Additional observations from a re-analysis of the deposited data

How the results depend on the processing

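Other settings were a pseudocount of 1, a minimum mean of 5 FPKM or none, median-ratio scaling, limma without the variance trend, the replicate block, a log2 ratio per culture for ribosome density, and leaving out each culture. For the 3 genes, only the footprint change of Cdk2ap1 changed sign, from 0.03 to -0.0018 without oligodendrocyte replicate 2. With median-ratio scaling, which moved the median of all transcripts by 0.18 in RNA-seq and -0.16 in ribosome density, the RNA change was 0.76 for Tpt1, -0.75 for Ak1 and -0.72 for Cdk2ap1, and the ribosome density change of Cdk2ap1 was 0.77. Relative to that median, Tpt1 RNA was at 0.80 with this scaling and 0.81 without. It moved the share of RNA-seq calls that were higher from 39.1% to 51.5%.

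Leaving out each culture, the changes of Tpt1 ranged from 0.47 to 0.68 in RNA, -1.13 to -0.84 in footprints and -1.82 to -1.31 in ribosome density. Those of Ak1 ranged from -0.996 to -0.869, 0.49 to 0.80 and 1.36 to 1.79, and those of Cdk2ap1 from -0.95 to -0.85, -0.0018 to 0.061 and 0.86 to 1.00.

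The 2772 RNA-seq calls became 1715 without a minimum, and 364 to 2599 with a culture left out. The 1969 footprint calls became 1163 without a minimum, 1036 without the trend, and 0 to 3442 with a culture left out. The single ribosome density call became 3 with median-ratio scaling, 14 without the trend, 0 with the ratio per culture (539 at an unadjusted p under 0.05) and 0 to 883 with a culture left out. The 88 list genes called in RNA-seq or footprints became 58 without the trend and 4 to 89 with a culture left out. A culture left out leaves its group with 1 sample, assumed to vary like the other group. The cause of these differences was not tested.

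With cultures paired in the replicate block, 3323 transcripts passed in RNA-seq, 1735 in footprints and 0 in ribosome density (439 at an unadjusted p under 0.05), and 92 list genes passed. The changes of the 3 genes are the same with the block. Depth limits Ak1 most, with 92 estimated reads in 1 library. Of the counts of calls for single lists under another setting, 161 stayed within 1.5 times the reported count, 11 were higher and 76 lower.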
